A study of Homo sapiens with 6 samples.

Results

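Natural antisense RNA genes are transcribed from the strand opposite a neighbouring gene, and by convention they carry the symbol of that sense gene followed by -AS and a number. Some overlap the exons of the sense gene and could pair with its transcript, others start beside its promoter and run away from it, and most are long noncoding RNAs of low abundance. Known members act in different ways, for example by binding microRNAs or proteins in the cytoplasm or by recruiting chromatin regulators to the locus they come from, and for most no function is known. FAM83H-AS1, the RNA silenced here, belongs to the same naming class, and the question addressed was which of the other antisense genes changed with it and whether their sense genes changed with them.

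The genes were taken from a table of whole read counts for 40173 genes in A549, a cell line derived from a human adenocarcinoma of the lung. Cells had been transfected with an siRNA against FAM83H-AS1 (silenced group, 3 libraries) or with a negative control (control group, 3 libraries) and were harvested 24 h later, and all 6 libraries were made from total RNA for Ion Proton sequencing. The transfection is transient, a single cell line stands for the tumour type, and the labels name neither the siRNA sequence nor separate cultures, so that p-values measure the spread between these libraries, which may be technical. In these bulk libraries, fewer cells of a kind and less RNA per cell cannot be told apart.

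Members were chosen by their symbol, which had to end in -AS and 1 digit, and on measured values, namely a sum of at least 60 counts over the 6 libraries. Of 585 rows with such a symbol, 421 were under that sum, 218 of them with 0 counts, and FAM83H-AS1 was set aside as the target, which left 163 genes. Just outside the limit were HOXC-AS1 with 58 counts and KLHL7-AS1 with 57, and just inside were A2M-AS1 and CBR3-AS1 with 60 each. A row for the sense gene was present for 160 of the 163 genes, which share 157 sense genes because MKLN1, PAXIP1 and GAS6 each have 2 antisense genes. The table typed 156 of the genes as miscRNA, 5 as antisense_RNA and 2 as mRNA. In the GENCODE 29 annotation, in which 158 of the genes could be found by a current or older symbol, 105 were antisense, 25 lincRNA, 20 processed_transcript, 4 transcribed_unitary_pseudogene and 4 protein_coding, so that a few of the genes are annotated as coding.

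Library totals ranged from 9738291 to 17742643 counts. The largest total belonged to control replicate 3, where RNA5-8SP6, a pseudogene of a ribosomal RNA, took 3.22% of the counts against 0.241% to 0.448% elsewhere. The silencing was seen in every library: FAM83H-AS1 had 14.5, 16 and 17.3 CPM (normalized read counts, scaled by library size and TMM factor to 1e+06 counts) in the controls and 4.59, 4.44 and 5.57 CPM after silencing, a log2 fold change of -1.70 ± 0.148 (SE, n = 3 per group; edgeR's quasi-likelihood test, adjusted p = 7.99e-05). Its own sense gene FAM83H had a log2 fold change of -0.23 ± 0.0791 with an adjusted p of 0.068 in the same edgeR test. Of 7 epithelial markers tested, KRT7, KRT18 and MUC1 fell, or 42.9% beside 17.0% of all genes, while the low CDH1 was at 0.78 ± 0.0775 CPM in control and 1.38 ± 0.296 CPM in silenced libraries (SD, n = 3), without overlap (log2 fold change 0.82 ± 0.328, edgeR, adjusted p = 0.112). The summed level of the 7 was 4500 to 4800 CPM in control and 3580 to 3630 CPM in silenced libraries. Markers of blood, endothelial and fibroblast cells summed to at most 2.38, 6.39 and 37.8 CPM in any library, with CD3E and PDGFRA at 0 counts. The part of these differences in the results that follow was not tested.

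The positions of the antisense genes relative to their sense genes decide which reads the 2 rows could share. Positions were taken from GENCODE 29 on GRCh38 by symbol, whereas the submitters' notes name GRCh37 for the counts, which carry no coordinates themselves. All 156 genes that could be placed with their sense gene lie on the opposite strand from it. Exons of both genes overlap in 107 pairs, the genes overlap without a shared exon base in 16 pairs, 31 pairs are arranged head-to-head with starts within 1000 bases, 2 antisense genes (ZMIZ1-AS1 and FOXD2-AS1) lie apart from their sense gene, and 7 genes could not be placed against a sense gene by symbol. Whether the counting used strand is not given in the sources used here, so that for the 107 pairs with overlapping exons reads from the 2 strands cannot be told apart.

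The stretches below show what such an overlap looks like in 4 of the antisense genes that changed and in 5 other pairs described further on. Each is 30 bases of an antisense transcript from GENCODE 29, written 5′ to 3′ on the antisense strand, with the bases that also lie in an exon of the sense gene in capitals and the bases outside it in lower case. A read across the capitals could come from either gene, whereas a read that extends across the lower case part reaches into sequence outside the annotated exons of the sense gene.
NOP14-AS1 (chr4:2950199-2950228, plus strand): ATTCATCTTTCCATCctaccaagagcgtgg
THAP9-AS1 (chr4:82900868-82900897, minus strand): tgctcccatacgcacTGGTGGAAGGAGAGG
TM4SF1-AS1 (chr3:149377851-149377880, plus strand): GGGAAAATGATTAATcttgaacaaggcatt
LBX2-AS1 (chr2:74502652-74502681, plus strand): tcttagtttcgtgacTTTGGGGGCGGCAGG
OIP5-AS1 (chr15:41309253-41309282, plus strand): actgaaaaagacaaaTTGTATATTATTCAG
FGD5-AS1 (chr3:14923993-14924022, minus strand): TGCTCACAGGCCGCTctgtaactgaaagaa
MAPKAPK5-AS1 (chr12:111842755-111842784, minus strand): gcacctcccccttacCTTGATGGCTTTGTC
TMEM9B-AS1 (chr11:8964759-8964788, plus strand): GAGCCGTTCGCGCACaggcagggcgggtgc
PRKAG2-AS1 (chr7:151877111-151877140, plus strand): AGAATAAACCAGCTCggagcctgcagctgg
The reverse complement of the capitals was found in 4 of 5 annotated NOP14 transcripts, in 5 of 6 of THAP9, in 4 of 7 of FGD5 and in 6 of 10 of MAPKAPK5, but in 1 of 4 of TM4SF1, 1 of 6 of LBX2, 1 of 2 of OIP5, 1 of 5 of TMEM9B and 2 of 16 of PRKAG2. The 15 shared bases shown therefore belong to most annotated transcripts of some sense genes and to 1 or 2 of others. The rest of each overlap was not searched.

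As a group, the antisense genes were a small part of the RNA. They took between 0.117% and 0.122% of the counts of a library, and their summed level was 1170 to 1230 CPM in control and 1140 to 1210 CPM in silenced libraries, so that the groups overlapped. C17orf76-AS1 alone, a host gene of small nucleolar RNAs named SNHG29 in current nomenclature, accounted for 222 to 293 CPM of this, and without it the sums were 884 to 932 CPM in control and 919 to 955 CPM in silenced libraries. The mean level of single members ranged from 0.81 CPM to 269 CPM with a median of 2.81 CPM. Levels per kb of exon in control cells were 76.2 CPM for C17orf76-AS1, 13.6 CPM for FGD5-AS1 and 12.9 CPM for DYNLL1-AS1, the 3 highest.

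Of the 163 genes, 156 passed edgeR's filter on low counts and were tested, and the other 7 had sums between 60 and 70 counts. At an adjusted p under 0.05 over all 15250 genes tested, 8 antisense genes changed, 7 higher and 1 lower, which is 5.13% of those tested, compared with 17.0% of all genes (8.75% higher and 8.27% lower). At an unadjusted p under 0.05 there were 25 of 156, beside 4894 of all 15250 genes. The median log2 fold change of the tested antisense genes was -0.07, with the middle 50% between -0.31 and 0.19, and that of all genes tested was 0.00. With a fold change over 2 as well, 1 antisense gene changed, ZMIZ1-AS1, compared with 2.14% of all genes. Values of the silenced and control libraries did not overlap for 34 antisense genes, 17 in each direction, and for 36.6% of all genes tested.

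The antisense genes were measured less precisely than most genes. The median standard error of the log2 fold change was 0.262 for the antisense genes and 0.120 for all genes. In an abundance range chosen after the data had been seen, the middle 50% of the antisense genes by mean level (1.42 to 7.14 CPM), 2 of 78 antisense genes or 2.56% had an adjusted p under 0.05, and 8.6% of all 3314 genes in that range did, with a median standard error of 0.253. Leaving out 1 library gave between 4 and 6 antisense genes: 5 without control replicate 1, 5 without control replicate 2 and 4 without silenced replicate 1. Without control replicate 3, the library that stands apart, there were 6.

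**Figure D1:**
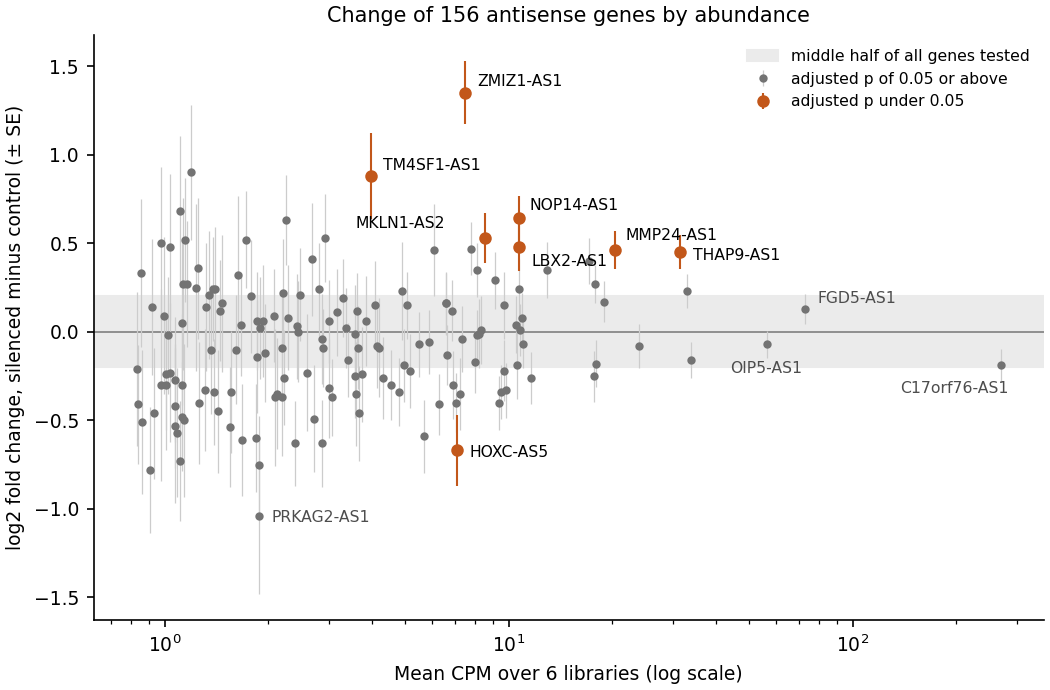
Change of the 156 tested antisense genes (log2 fold change, silenced minus control, with SE) against their mean CPM over 6 libraries on a log scale, with the middle 50% of all genes tested as a grey band. The 8 genes with an adjusted p under 0.05 are in orange, 7 above and 1 below 0, and the 3 most abundant genes lie in the band.

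ZMIZ1-AS1 rose in the silenced cells by more than any other antisense gene that passed the test. Its counts were 32, 49 and 84 in control and 116, 118 and 136 in silenced libraries, or 3.29, 4.23 and 4.97 CPM against 11.3, 10.9 and 10.1 CPM. Every silenced library was above every control library, at more than 2 times the level of the highest control. The log2 fold change was 1.35 ± 0.177 (SE, n = 3 per group; edgeR, adjusted p = 0.000928), and it stayed between 1.21 and 1.5 with each library left out, with an adjusted p of at most 0.00743. The gene lies at chr10:78943328-79067895 on the minus strand, starts 1140 bases from ZMIZ1 and shares no base with it. ZMIZ1, a transcriptional coactivator related to the PIAS family of SUMO ligases, had 158, 139 and 151 CPM in the controls and 190, 166 and 172 CPM in the silenced libraries, a log2 fold change of 0.24 ± 0.0797 (edgeR, adjusted p = 0.0595, or 0.0475 with DESeq2). The log2 ratio of antisense to sense counts was -5.17 ± 0.345 in control and -4.02 ± 0.0865 in silenced libraries (SD, n = 3), without overlap, and an exact two-sided permutation test over the 6 libraries gave p = 0.1, the smallest it can give for 3 against 3.

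NOP14-AS1 and THAP9-AS1 also rose and kept an adjusted p under 0.05 whichever library was left out. NOP14-AS1 (chr4:2934899-2961738, plus strand), which overlaps the gene of a nucleolar protein needed for the small ribosomal subunit, had 8.43, 8.29 and 8.45 CPM in control and 13.2, 11.8 and 14 CPM in silenced libraries. Its log2 fold change was 0.64 ± 0.129 (edgeR, adjusted p = 0.00831), and the 3 control libraries were nearly equal. NOP14, which shares 605 exon bases with it, had 73.2 ± 1.4 CPM in control and 67.9 ± 0.873 CPM in silenced libraries (SD, n = 3). Its log2 fold change was -0.11 ± 0.0695 (edgeR, adjusted p = 0.308), so that the 2 rows of this locus differed in sign. The log2 ratio of the pair was -3.12 ± 0.034 in control and -2.38 ± 0.131 in silenced libraries (SD, n = 3), again without overlap.

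THAP9-AS1 (chr4:82893009-82900960, minus strand) starts 276 bases inside THAP9, a gene derived from a DNA transposase, and was among the more abundant antisense genes. It had 25.6, 26.9 and 27.3 CPM in control and 33.6, 40.4 and 35.2 CPM in silenced libraries, a log2 fold change of 0.45 ± 0.0947 (edgeR, adjusted p = 0.0097). THAP9 was measured at 15 to 36 counts a library in control and 24 to 43 in silenced libraries, with a log2 fold change of 0.70 ± 0.298 and an adjusted p of 0.13. Per kb of exon, THAP9-AS1 was 15 times as abundant as THAP9 in control cells, and their log2 ratio overlapped between the groups (3.92 ± 0.22 and 3.67 ± 0.296, SD, n = 3).

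The other 4 genes that rose were more dependent on single libraries. MMP24-AS1, named after a membrane-type matrix metalloproteinase gene and not placed in GENCODE 29, had 16.4, 17.8 and 17.4 CPM in control and 25.7, 21.1 and 24.2 CPM in silenced libraries (log2 fold change 0.46 ± 0.107, edgeR, adjusted p = 0.0153). Of the 6 libraries, it lost the call only without silenced replicate 1 (log2 fold change 0.40, edgeR, adjusted p = 0.0748). MMP24 had 32.2 ± 9.0 CPM in control and 28.8 ± 1.39 CPM in silenced libraries (SD, n = 3), with a log2 fold change of -0.17 ± 0.163 that was 0.07 without control replicate 3.

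MKLN1-AS2 (chr7:131309469-131328222, minus strand), within the gene of muskelin, a subunit of the CTLH ubiquitin ligase, had 6.48, 6.91 and 7.45 CPM in control and 10.1, 9.71 and 10.5 CPM in silenced libraries (log2 fold change 0.53 ± 0.14, edgeR, adjusted p = 0.0259). The call was lost with DESeq2 (adjusted p = 0.0612) and without control replicate 1 (0.0641), control replicate 2 (0.0684), silenced replicate 1 (0.0809) or silenced replicate 3 (0.081), while the log2 fold change stayed between 0.49 and 0.59. The second antisense gene of that locus, MKLN1-AS1, had 16, 13.9 and 14.4 CPM in control and 21.4, 20.9 and 16.3 CPM in silenced libraries (log2 fold change 0.40 ± 0.129, adjusted p = 0.0549 in edgeR), and MKLN1 itself had a log2 fold change of 0.29 ± 0.0959 (adjusted p = 0.0616). All 3 rows of the locus were higher in every silenced library than in every control library, although 1 of the 3 passed the test, and MKLN1-AS1 was named after its values had been seen.

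TM4SF1-AS1 (chr3:149377778-149386583, plus strand) starts 87 bases inside TM4SF1, a tetraspanin-like surface protein gene, and had 18, 41 and 50 counts in control and 49, 59 and 71 counts in silenced libraries. In CPM these were 1.85, 3.54 and 2.96 against 4.78, 5.46 and 5.28, without overlap (log2 fold change 0.88 ± 0.243, edgeR, adjusted p = 0.0315). It kept the call only without control replicate 2, with adjusted p-values between 0.0543 and 0.0787 in the other 5 cases, and its log2 fold change ranged from 0.68 to 1.06. TM4SF1 was far more abundant, at 603 ± 102 CPM in control and 688 ± 44.2 CPM in silenced libraries (SD, n = 3). Its log2 fold change was 0.19 ± 0.112 (edgeR, adjusted p = 0.275), and per kb the antisense gene had 0.0182 of the level of the sense gene in control cells.

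LBX2-AS1 (chr2:74502595-74504678, plus strand), which starts inside the homeobox gene LBX2, had 9.97, 8.29 and 8.75 CPM in control and 11.5, 13.6 and 12.3 CPM in silenced libraries (log2 fold change 0.48 ± 0.135, edgeR, adjusted p = 0.0347). With 1 library left out it was called only without control replicate 1, and DESeq2 did not call it (adjusted p = 0.0705). Without control replicate 2, control replicate 3 or any of the silenced replicates, its adjusted p in edgeR was between 0.0667 and 0.105. LBX2 had 4.0 ± 0.0248 CPM in control and 3.45 ± 0.475 CPM in silenced libraries (SD, n = 3), a log2 fold change of -0.21 ± 0.206, and the log2 ratio of the pair did not overlap between the groups (1.16 ± 0.13 and 1.85 ± 0.318, SD, n = 3; exact two-sided permutation test, p = 0.1, the smallest possible).

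HOXC-AS5 was the only antisense gene that fell at this threshold. It had 9.56, 9.59 and 7.04 CPM in control and 6.84, 4.99 and 4.61 CPM in silenced libraries, so that control replicate 3 and silenced replicate 1 were nearly equal, with a log2 fold change of -0.67 ± 0.202 (edgeR, adjusted p = 0.0433). In edgeR, the call was lost with library size as the only scaling (adjusted p = 0.0598) and without control replicate 1 (0.111), control replicate 2 (0.128), silenced replicate 2 (0.113) or silenced replicate 3 (0.133). The table has no row for a gene named HOXC, but GENCODE 29 names this gene HOXC13-AS (chr12:53935328-53939643, minus strand), which shares 172 exon bases with HOXC13, a homeobox transcription factor gene of the HOXC cluster. HOXC13, looked up after the values of HOXC-AS5 had been seen, fell as well, from 85.1 ± 12.5 CPM to 64.5 ± 2.1 CPM (SD, n = 3; log2 fold change -0.40 ± 0.101, edgeR, adjusted p = 0.0222).

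**Figure D2:**
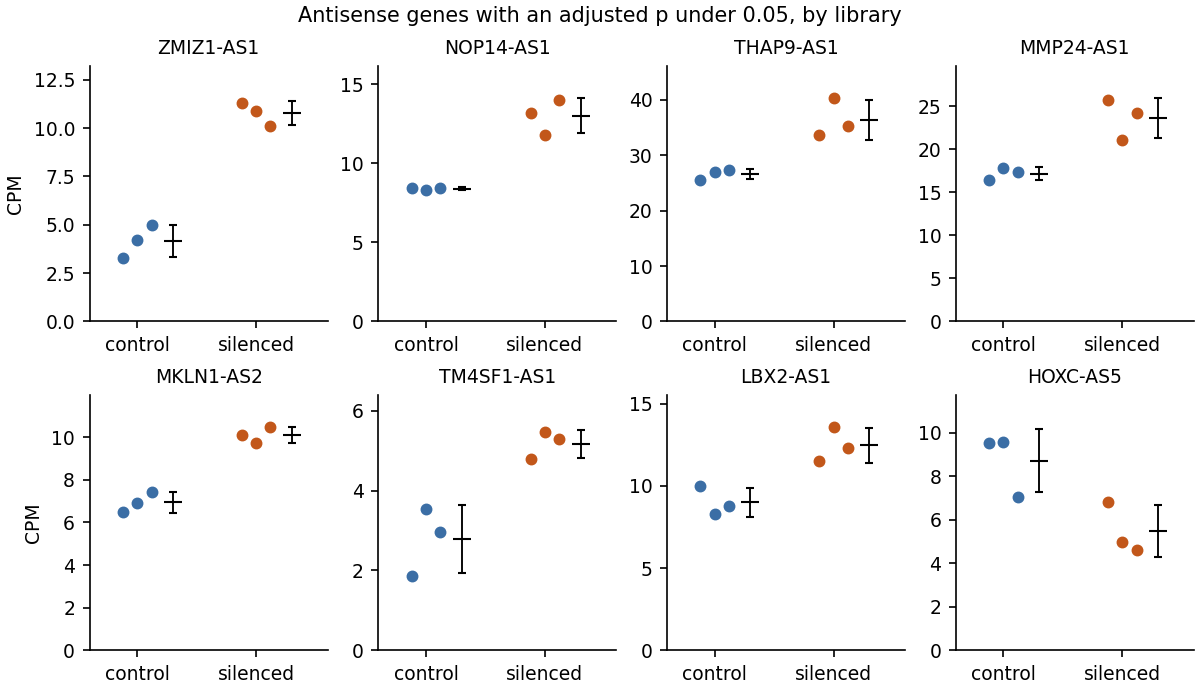
CPM of the 8 antisense genes with an adjusted p under 0.05 in the 3 control (blue) and 3 silenced (orange) libraries, with the mean and SD of each group in black. The silenced points lie above all control points in 7 genes and below them in HOXC-AS5, where the nearest points, 7.04 and 6.84 CPM, almost touch.

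The most abundant antisense genes, apart from THAP9-AS1 and MMP24-AS1, did not pass the test. C17orf76-AS1 had 283, 284 and 293 CPM in control and 244, 222 and 289 CPM in silenced libraries, and its log2 fold change of -0.19 ± 0.0915 (edgeR, adjusted p = 0.183) passed without silenced replicate 3 alone (-0.30, adjusted p = 0.0362). The table lists its sense gene, LRRC75A in GENCODE 29, under the symbol FAM211A, with 6.85 ± 1.15 CPM in control and 7.25 ± 1.14 CPM in silenced libraries (SD, n = 3). OIP5-AS1, known as Cyrano and for its part in the decay of a microRNA, was steady, with 54.3, 59.9 and 59.4 CPM in control and 54.3, 57.1 and 54.2 CPM in silenced libraries (log2 fold change -0.07 ± 0.0754, edgeR, adjusted p = 0.562). OIP5, a centromere protein gene that has 470 exon bases in common with it, had a log2 fold change of -0.13 ± 0.108, and the log2 ratio of the pair was 1.5 ± 0.0386 and 1.56 ± 0.0813 (SD, n = 3).

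FGD5-AS1 was expressed almost without its sense gene. It had 65.4, 68.3 and 75.1 CPM in control and 75.8, 81.5 and 71.4 CPM in silenced libraries (log2 fold change 0.13 ± 0.0839, edgeR, adjusted p = 0.327), while FGD5, an endothelial guanine nucleotide exchange factor, had 0 to 2 counts in every library. The FGD5 row was this low although the 2 genes have 176 exon bases in common. NNT-AS1, antisense to the mitochondrial transhydrogenase gene, had 27.0, 31.3 and 32.8 CPM in control and 33.7, 36.2 and 37.3 CPM in silenced libraries, a separation without overlap that did not pass the test (log2 fold change 0.23 ± 0.0958, edgeR, adjusted p = 0.124). TP73-AS1 and DYNLL1-AS1, the latter named NRAV for its effect on antiviral genes, had log2 fold changes of -0.16 ± 0.103 and -0.08 ± 0.125.

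Antisense RNAs with a described role or a well studied sense gene differed widely in level. Those among the members had sums over the 6 libraries from 114 counts (DDX11-AS1) to 5314 (FGD5-AS1), beside a median of 203 for all members. CDKN2B-AS1 and ZEB1-AS1, with 141 and 121 counts, were below that median. CDKN2B-AS1, also called ANRIL and known for Polycomb recruitment at the locus of the cyclin-dependent kinase inhibitor CDKN2B, had 1.81 to 2.36 CPM in control and 1.49 to 2.22 CPM in silenced libraries (log2 fold change -0.12 ± 0.275). ZEB1-AS1, next to the gene of a transcription factor of epithelial-mesenchymal transition, had 1.54 to 1.73 CPM and 1.34 to 2.22 CPM (log2 fold change 0.04 ± 0.291). Of a list of 25 such RNAs, 12 were members. Besides ZMIZ1-AS1, edgeR called 0 of these members, beside 5.13% of the tested antisense genes and 17.0% of all genes. Again besides ZMIZ1-AS1, 0 had an unadjusted p under 0.05, beside 25 of the 156 tested antisense genes, and DESeq2 called 0. The 11 others were OIP5-AS1, FGD5-AS1, CDKN2B-AS1, ZEB1-AS1, TMPO-AS1, SBF2-AS1, MCM3AP-AS1, FOXD2-AS1, LOXL1-AS1, MAPKAPK5-AS1 and DDX11-AS1, and their adjusted p-values in edgeR lay between 0.254 and 0.984. Their standard errors, 0.0754 to 0.339, leave room for changes of moderate size in the low ones. Among the sense genes of the list, MAPKAPK5 fell (log2 fold change -0.40 ± 0.107, edgeR, adjusted p = 0.0283) and is described further on. SBF2, an endosomal guanine nucleotide exchange factor gene, rose (log2 fold change 0.28 ± 0.0836, edgeR, adjusted p = 0.0437) and MCM3AP, a gene of nuclear mRNA export, fell (-0.24 ± 0.0667, edgeR, adjusted p = 0.0339), while SBF2-AS1 had -0.01 ± 0.197 and MCM3AP-AS1 0.06 ± 0.234. With 1 library left out, the largest adjusted p in edgeR was 0.134 for SBF2 and 0.115 for MCM3AP, which was called in 0 of the 6 cases. HIF1A-AS2, ZEB2-AS1, EGFR-AS1 and PTPRG-AS1 had 0 counts in all libraries, which allows up to 0.308 CPM in the smallest library, and USP30-AS1, HOXA-AS2 and GATA6-AS1 had 3, 12 and 52 counts in all, and the other 6 RNAs of the list were not analysed here.

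More sense genes than antisense genes passed the test. Of 139 sense genes tested, 38 had an adjusted p under 0.05, 18 higher and 20 lower, which is 27.3% beside 17.0% of all genes (8.75% higher and 8.27% lower). At an unadjusted p under 0.05 there were 63 of 139, beside 4894 of all 15250 genes. The tested sense genes had a median log2 fold change of -0.03. They were also measured more precisely, with a median level of 46.7 CPM against 2.9 CPM for the tested antisense genes and a median standard error of 0.0946. The count was 24 without control replicate 1 and 21 without silenced replicate 1. In 137 pairs matched by symbol both genes were tested, and the antisense gene alone was called in 7, the sense gene alone in 38, and neither in 92, so that edgeR called both genes in 0 of these pairs. HOXC-AS5 and HOXC13, both of which fell, are not among them, because their symbols do not match in the table. At an unadjusted p under 0.05 both genes passed in 14 of the 137 pairs. The count of 0 depended on the setting. Both ZMIZ1-AS1 and ZMIZ1 were called by DESeq2 and with library size as the only scaling, both genes of 3 pairs when all genes with at least 1 count were tested (MKLN1-AS1, MKLN1-AS2 and PRKAG2-AS1), and both genes of the MKLN1-AS1 pair without silenced replicate 3. In the 38 pairs with a called sense gene, the log2 fold change of the antisense gene had the same sign in 25 and the other sign in 13.

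Across the 137 pairs, the log2 fold changes of antisense and sense genes had a Pearson's r of 0.28 and a Spearman's rho of 0.28. This is a description across genes measured in the same 6 libraries, in which overlapping exons may also share reads. Within the 88 tested pairs with overlapping exons r was 0.32 (rho 0.31), within the 30 head-to-head pairs, which share no exon base, 0.33 (rho 0.29), and within the 13 pairs that overlap without a shared exon base -0.28 (rho -0.18). By position, 5 of 101 tested antisense genes with overlapping exons were higher and 0 lower. Among all 156 tested antisense genes 5.13% were called, and 17.0% of all genes. Of the 31 head-to-head genes and the 15 genes without a shared exon base, 0 were called by edgeR or by DESeq2. At an unadjusted p under 0.05 there were 4 and 2 of them, beside 25 of all 156 and 4894 of all 15250 genes. Whether calls differ between the classes was not tested. These classes rest on matched symbols, so HOXC-AS5, which fell and shares 172 exon bases with HOXC13, is not counted among the overlapping genes. ZMIZ1-AS1, which rose, shares no base with ZMIZ1 and is counted as apart because it starts just beyond the limit of 1000 bases. The median log2 fold change was -0.06 for overlapping exons, 0.01 for head-to-head and -0.12 for overlap without a shared exon base.

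**Figure D3:**
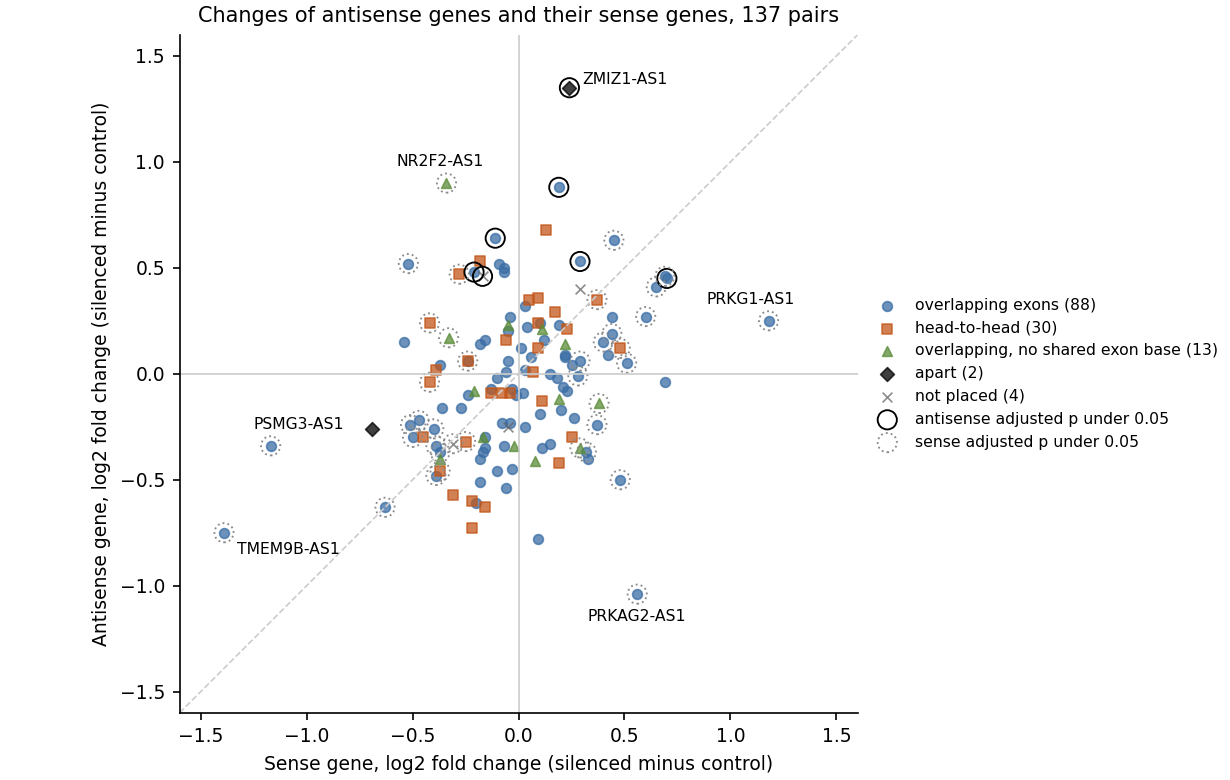
Log2 fold change (silenced minus control) of the antisense gene against that of its sense gene in 137 pairs, with symbols for the position of the genes, solid rings where the antisense gene and dotted rings where the sense gene had an adjusted p under 0.05. The pair of HOXC-AS5 and HOXC13, whose symbols do not match, is not plotted, no plotted pair carries both rings, and ZMIZ1-AS1 (1.35 against 0.24) and PRKAG2-AS1 (-1.04 against 0.56) lie far from the dashed line of equal change.

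In some pairs, picked after their values had been seen, the sense gene was called and the antisense gene had a log2 fold change of the same sign that did not pass the test. TMEM9B, a lysosomal membrane protein gene, fell from 20.8 ± 0.342 CPM to 7.94 ± 0.451 CPM (SD, n = 3; log2 fold change -1.39 ± 0.112, edgeR, adjusted p = 4.3e-05). TMEM9B-AS1 had 23, 23 and 46 counts in control and 14, 13 and 22 in silenced libraries, a log2 fold change of -0.75 ± 0.275 with an adjusted p of 0.0854 in edgeR and no overlap in CPM between the groups. PSMG3, a proteasome assembly chaperone gene, fell from 81.3 ± 2.59 CPM to 36.2 ± 2.74 CPM (log2 fold change -1.17 ± 0.081, edgeR, adjusted p = 2.11e-05). PSMG3-AS1 had 1.30 to 1.89 CPM and 1.11 to 1.41 CPM (log2 fold change -0.34 ± 0.3, edgeR, adjusted p = 0.474), and the log2 ratio of the pair was -5.7 ± 0.27 in control and -4.83 ± 0.115 in silenced libraries (SD, n = 3), without overlap. NR2F1-AS1 and the nuclear receptor gene NR2F1 had the same log2 fold change, -0.63 ± 0.242 and -0.63 ± 0.159, of which only the latter passed (edgeR, adjusted p = 0.0991 and 0.0214). SLC2A1, the gene of the glucose transporter GLUT1, rose (log2 fold change 0.45 ± 0.0946, adjusted p = 0.0095), and SLC2A1-AS1 had 0.63 ± 0.254 (adjusted p = 0.111).

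Other pairs had values of opposite sign, and they too were picked after their values had been seen. PRKAG2, the gene of a regulatory subunit of AMP-activated protein kinase, rose from 22.1 ± 1.08 CPM to 32.7 ± 1.99 CPM (SD, n = 3; log2 fold change 0.56 ± 0.0919, edgeR, adjusted p = 0.00278). PRKAG2-AS1 (chr7:151877042-151879223, plus strand) had 42, 19 and 29 counts in control and 18, 9 and 14 in silenced libraries, where control replicate 1, at 4.32 CPM, was far above the other controls, at 1.64 and 1.71 CPM, and its log2 fold change was -1.04 ± 0.439 (edgeR, adjusted p = 0.127). The CPM of the groups overlapped, whereas the log2 ratio of the pair was -3.24 ± 0.840 in control and -4.77 ± 0.451 in silenced libraries (SD, n = 3) and did not. FLVCR1-AS1, head-to-head with the gene of a haem and choline transporter, had 6.58, 6.91 and 6.15 CPM in control and 9.57, 9.52 and 8.03 CPM in silenced libraries (log2 fold change 0.47 ± 0.152, adjusted p = 0.0581), while FLVCR1 fell (log2 fold change -0.28 ± 0.0845, adjusted p = 0.0429), and their log2 ratio was -2.23 ± 0.123 and -1.49 ± 0.177 (SD, n = 3). NR2F2-AS1 had 4, 13 and 15 counts in control and 20, 17 and 16 in silenced libraries (log2 fold change 0.90 ± 0.381, adjusted p = 0.129), and NR2F2 fell (log2 fold change -0.34 ± 0.0834, adjusted p = 0.0195).

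**Figure D4:**
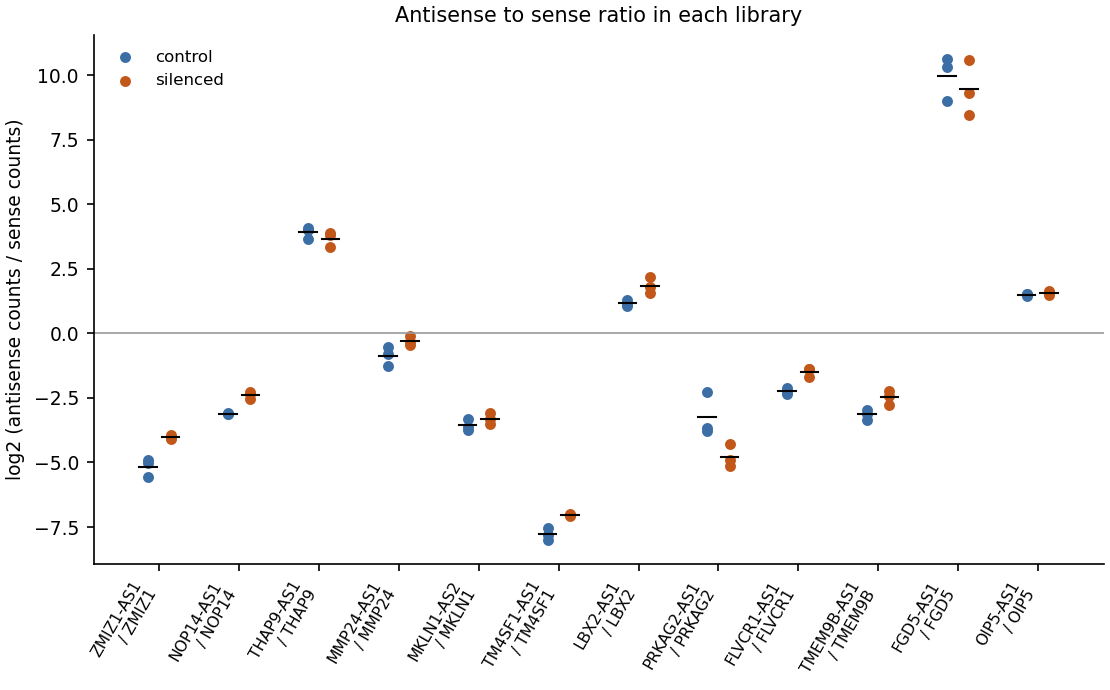
Log2 ratio of antisense to sense counts (0.5 added to each count) in each control (blue) and silenced (orange) library for 12 pairs, with group means as black lines. The ratio was higher in all silenced libraries for ZMIZ1-AS1, NOP14-AS1, MMP24-AS1, TM4SF1-AS1, LBX2-AS1, FLVCR1-AS1 and TMEM9B-AS1, lower for PRKAG2-AS1, and overlapped for THAP9-AS1, MKLN1-AS2, FGD5-AS1 and OIP5-AS1. Most of the 12 pairs hold a called antisense gene or were picked after their values had been seen. Among all 160 pairs with a row for the sense gene, the ratio was higher without overlap in 17, lower in 15 and overlapped in 128.

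In level, most antisense genes were below their sense gene. Per kb of exon in control cells, the median ratio of antisense to sense was 0.162 over 151 pairs with a length for both genes and a sense gene above 0, and the antisense gene was the higher in 32 of them. The length is that of the merged exons of all annotated transcripts of a gene, which lowers the level per kb of genes with many transcripts. This was the case for 24 of 104 pairs with overlapping exons and for 3 of 31 head-to-head pairs. At some loci, picked after their values had been seen, the antisense gene stood almost alone. TTN, the titin gene of muscle, had 0 to 2 counts a library while TTN-AS1 had 68 to 205, and SLFNL1 had 0 or 1 while SLFNL1-AS1 had 37 to 129. MAPKAPK5-AS1, from the list of described RNAs, was at 2.99 times the level per kb of its expressed sense gene MAPKAPK5, a protein kinase gene. The merged exons of MAPKAPK5 total 14006 bases, and in counts MAPKAPK5-AS1 was below it, at 49.1% in control libraries. MAPKAPK5 fell (log2 fold change -0.40 ± 0.107, edgeR, adjusted p = 0.0283) while MAPKAPK5-AS1 had -0.26 ± 0.148 (adjusted p = 0.254). The call of MAPKAPK5 was lost without control replicate 2, control replicate 3 or silenced replicate 1 (log2 fold change -0.46 to -0.33 with each library left out).

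**Figure D5:**
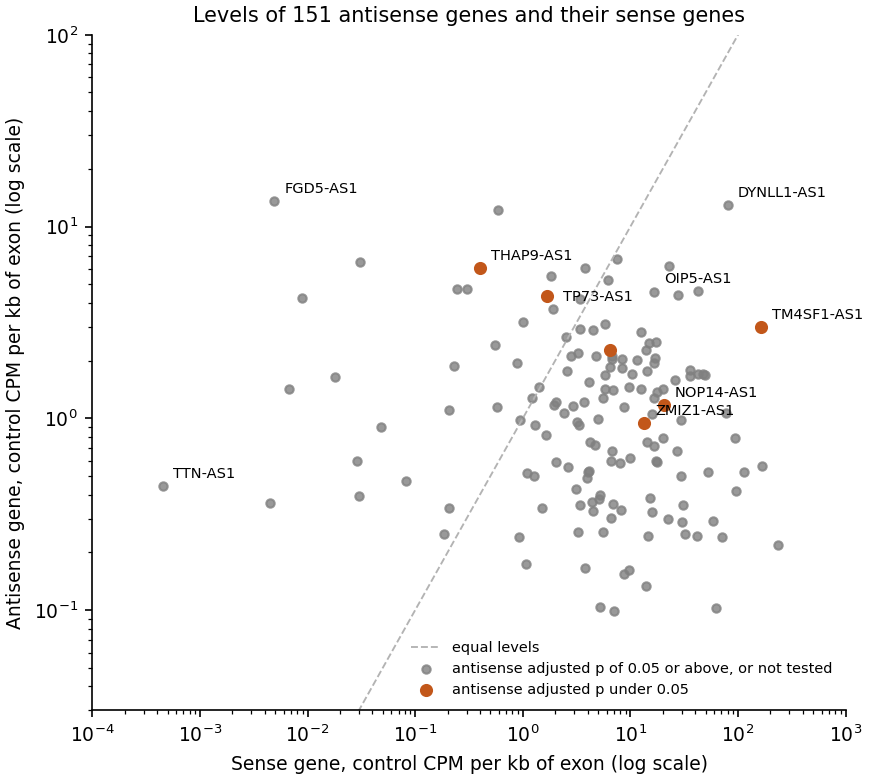
Control level of 151 antisense genes against that of their sense genes, both in CPM per kb of exon on log scales, with the line of equal levels dashed and antisense genes with an adjusted p under 0.05 in orange. Most points lie below the line, and FGD5-AS1, TTN-AS1 and THAP9-AS1 lie above it.

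Promoters were compared by letters only. RefSeq (GRCh38.p14) gave 250 bases before to 50 after the start for 132 of the antisense genes and for 35116 genes in all, and each motif was searched on both strands. The GC box core GGGCGG was found in 62.9% of the antisense promoters and in 45.0% of all promoters, CCAAT in 35.6% and 34.6%, TATAAA in 4.55% and 11.5%, and the cAMP response element TGACGTCA in 1.52% and 1.85%. Of the 7 antisense genes that rose, looked at after their values had been seen, 6 had CCAAT, 5 had GGGCGG and 0 had TATAAA or TGACGTCA. The window of a head-to-head gene also lies near the start of its sense gene. The same holds for genes that start just inside their sense gene, such as TM4SF1-AS1 and THAP9-AS1, which rose. A match in such a window cannot be assigned to either gene.

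Antisense RNA is processed by the nuclear exosome, which degrades many noncoding transcripts from their 3′ end, and by proteins that bind or edit double-stranded RNA. Of 29 genes of this machinery, all tested, 6 fell and 0 rose at an adjusted p under 0.05, or 20.7% beside 17.0% of all genes, with a median log2 fold change of -0.09. At an unadjusted p under 0.05 there were 11 of 29, in both directions, beside 4894 of all 15250 genes. DESeq2 called 5, all lower. Of the 29 log2 fold changes, 20 were below 0 and 9 above. DIS3 and RBM7, picked after their values had been seen, were higher in every silenced library than in every control library. Their log2 fold changes were 0.24 ± 0.0871 and 0.32 ± 0.113 (edgeR, adjusted p = 0.0824 and 0.0711). EXOSC5, a ring subunit of the exosome, fell from 60.2, 46.9 and 52.4 CPM to 36.8, 35.1 and 32.2 CPM, a log2 fold change of -0.61 ± 0.102 (edgeR, adjusted p = 0.00312). EXOSC4, also of the ring, fell by 0.57 on the log2 scale, from 23.9 ± 2.92 CPM to 16 ± 1.8 CPM (SD, n = 3; edgeR, adjusted p = 0.0117), and DIS3L, the cytoplasmic exosome nuclease, by 0.51 (adjusted p = 0.0104). The poly(A) binding protein PABPN1 (edgeR, adjusted p = 0.0358) and the exosome cofactor MPHOSPH6 (0.0494) fell by 0.29 and 0.38. Without control replicate 1 the count was 3, and without silenced replicate 1 it was 2.

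Genes named as intronic or overlapping transcripts (-IT or -OT) with at least 60 counts numbered 3. Of these, edgeR called 0, beside 17.0% of all genes, with 0 at an unadjusted p under 0.05 and 0 by DESeq2. Their levels were low, and ANP32A-IT1, named after its values had been seen, had 1.38 to 2.96 CPM in control and 0.879 to 1.41 CPM in silenced libraries (log2 fold change -0.75 ± 0.356, adjusted p = 0.173).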

How the data were processed

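Libraries of total RNA from A549 cells were sequenced on the Ion Proton. The authors mapped the reads with MapSplice and deposited whole read counts per gene, and the submitters' processing notes name the GRCh37 build. Whether counting used strand, and which annotation it used, is not given in the sources used here. All 40173 rows and all 6 libraries were used, 3 per group, and groups were taken from the sample labels.

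Genes were tested with edgeR 4.0.16 in R 4.3.3 (filterByExpr, TMM factors, quasi-likelihood test) over 15250 genes with Benjamini-Hochberg adjustment, and a gene was called at an adjusted p under 0.05. Standard errors are of the log2 fold change, and differences between groups are silenced minus control. DESeq2 1.42.0, RLE factors, library size alone, other filters (any gene with 1 count, or 10 counts in every library), a replicate block, each library left out and a threshold of 0.01 were alternatives. The fit was tested on simulated data. Replicate numbers shared between groups were checked by the correlation of deviations from the group means. It was 0.124, 0.149 and 0.067 for numbers 1 to 3, and -0.112 to 0.0182 for libraries of unlike numbers. The study's methods name no pairing, and the numbers were not taken to pair the libraries in the main fit. Ratios of antisense to sense counts had 0.5 added to each count.

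Positions and 30-base stretches came from GENCODE 29, and genes were matched by current or older symbols. Exon lengths are those of the merged exons of all annotated transcripts of a gene. Head-to-head means starts within 1000 bases without a shared base. Members, gene lists and the abundance range were chosen with earlier results of these data known. Genes were named if called, if among the 8 most abundant members, or if on the list of antisense RNAs with a described role or a well studied sense gene, each with its sense gene, and any other gene was chosen after its values were seen. A count of 0 allows up to 3 counts, which is counting error only. The values of 1 gene of the machinery list are not reported here.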

Additional observations from a re-analysis of the deposited data

How the results depend on the processing

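Of 513 values of single genes under the alternatives, 454 kept their direction and their side of the threshold, 38 lost the call, 11 gained it and 10, in 6 genes, changed sign. Of 238 differences between antisense and sense changes, 237 moved by less than the spread between libraries. The exception, MMP24-AS1 against MMP24, was 0.63 on the log2 scale and 0.39 without control replicate 3. Called antisense genes numbered 4 to 6 with 1 library left out and 3 at an adjusted p under 0.01. Those with a fold change over 2 numbered 2 when all genes with at least 1 count were tested, 2 with the replicate block and 1 to 2 with 1 library left out. Called sense genes numbered 21 to 35 with 1 library left out and 18 at the stricter threshold, and machinery genes 2 to 5 and 1. The median log2 fold change of the sense genes was 0.01 with library size only, when that of all genes was 0.03. With the replicate block, 12 antisense genes, 51 sense genes and 11 machinery genes were called, and both genes of 5 pairs (FLVCR1-AS1, MKLN1-AS1, MKLN1-AS2, PRKAG2-AS1 and ZMIZ1-AS1). Every library correlated best with its own number, which is a hint from the data and not from the design. Signs changed with 1 library left out (DYNLL1-AS1 -0.19 to 0.03, CDKN2B-AS1 -0.25 to 0.04, ZEB1-AS1 -0.19 to 0.20, SBF2-AS1 -0.15 to 0.14, MCM3AP-AS1 -0.06 to 0.21 and MMP24 -0.34 to 0.07) and for SBF2-AS1 with library size only (0.03), and the cause was not tested. The median standard error of the antisense genes was 0.262 on the log2 scale, and that of all genes 0.120.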
